A study of Mus musculus with 12 samples.

Results

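Homologous recombination, the Fanconi anemia pathway and the checkpoint kinases that answer to broken DNA were followed through 38 genes in 3 mouse small cell lung cancer lines in which the transcription factor gene Nfib was lowered or raised. The genes were taken by name from a fixed list, and all 38 were among the 23226 features that carry 1 gene name in the authors' deposited table, which holds 28112 features. Lines 16T and KP1 (Nfib high in the labels) carried a vector with an shRNA to Nfib (sh2 in the titles of both lines) or a control shRNA (shLuc). The line KP22, labelled Nfib low, carried a vector with Nfib cDNA or an empty vector. Each of the 6 groups held 2 samples, 12 in all. All lines derive from tumors, are labelled Trp53-/-;Rb1-/- in treated and control samples alike, and grew as floating spheres in RPMI with serum. One shRNA name per knockdown and 1 line per overexpression limit what the groups stand for, and the labels do not say that the duplicates were separate cultures, so every p below measures only the spread between these samples.

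Homologous recombination repairs a double-strand break by copying an intact sister chromatid, and so works in cells that have replicated their DNA. The MRE11-RAD50-NBN complex and its partners trim the break to single-stranded DNA, BRCA1 and BRCA2 with PALB2 make that DNA ready to pair with the sister, and further proteins carry out strand exchange. The Fanconi core complex attaches ubiquitin to the FANCD2-FANCI pair at DNA crosslinks and hands the lesion to recombination. ATM and ATR are the kinases that sense breaks and stalled forks and act through CHK2 and CHK1. Small cell lung cancers divide fast and lack the p53 and RB checkpoints, which leaves these S and G2 controls in place.

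The values were the authors' log2 fold changes with SEs, without values per sample, so the number of samples showing a direction and the depth of each library are unknown here. The words rose and fell are kept for genes with an adjusted p below 0.05 over all features the authors tested, and ± gives the SE. Per the authors' deposited table, the log2 fold change of Nfib was -1.08 ± 0.035 in 16T with the shRNA, -1.32 ± 0.035 in KP1 with the shRNA, and 1.80 ± 0.036 in KP22 with the cDNA. The direction of each comparison was read from Nfib itself, so Nfib does not check the labels. The table does not separate the exons that the Trp53 and Rb1 alleles remove, so their features (mean normalized counts of 411 and 6555) check nothing about the genotype. All 14 neuroendocrine markers had a mean normalized count of at least 298. Of 10 leukocyte markers 6 had a mean under 10 and Cd79a had the highest, 494, and of 11 fibroblast and endothelial markers 5 had a mean under 10 and Pdgfra had the highest, 2220.

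All 38 genes were expressed well enough to be tested in every comparison. Mean normalized counts over the libraries ran from 391 for Fancf to 14372 for Topbp1 in the authors' deposited table. Per kilobase of counted exon, the level was highest for H2afx (3471 per kb), the histone variant phosphorylated around breaks, followed by Topbp1 (2812), Mdc1 (1702), Trp53bp1 (1377), and Rad54l (1207). The lowest levels per kb were those of Rad51d (141), Xrcc2 (157), Brip1 (169), and Fancc (189), and the median over the 38 genes was 595. These levels are means over all 3 lines and have no spread per group, so neighbors in this order cannot be told apart.

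Raising Nfib in KP22 was accompanied by higher transcripts of most of these genes, whereas lowering Nfib changed fewer of them. In KP22 with Nfib cDNA, 27 of 38 rose, against 19.5% of all genes tested and 28% of genes within the members' range of mean counts, and 1 fell, against 18.8% and 24.9%. Either way that is 28 of 38, against 38.4% of all genes. The rises ran from 1.13-fold to 2.0-fold with a median of 1.35-fold. Under Student's t at 6 degrees of freedom 7 of the KP22 calls were lost (adjusted p of 0.0686 to 0.125). They were those of Rad50, Nbn, Brip1, Palb2, Xrcc2, Fancb and Fancg. In 16T with the Nfib shRNA, 13 of 38 fell, against 25.3% of all genes and 30.1% within that range, and 3 rose, against 20% and 23.5%, so 16 changed, against 45.3% of all genes. In KP1 with the Nfib shRNA, 3 fell, against 19.6% and 22.5%, and 5 rose, against 17.6% and 20.9%, so 8 changed, against 37.2% of all genes. The median log2 fold change over the 38 genes was 0.33 in KP22, -0.14 in 16T and -0.03 in KP1, beside 0.04, -0.05 and -0.02 over all genes tested. The share of members that fell in 16T, 34.2%, was near the 30.1% of genes of like counts, so the falls are described gene by gene below and not as a trait of the members. The other shares in the knockdown lines, 7.89% to 13.2%, were under the background. In these bulk samples a change per cell and a change in the share of dividing cells cannot be told apart.

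**Figure D1:**
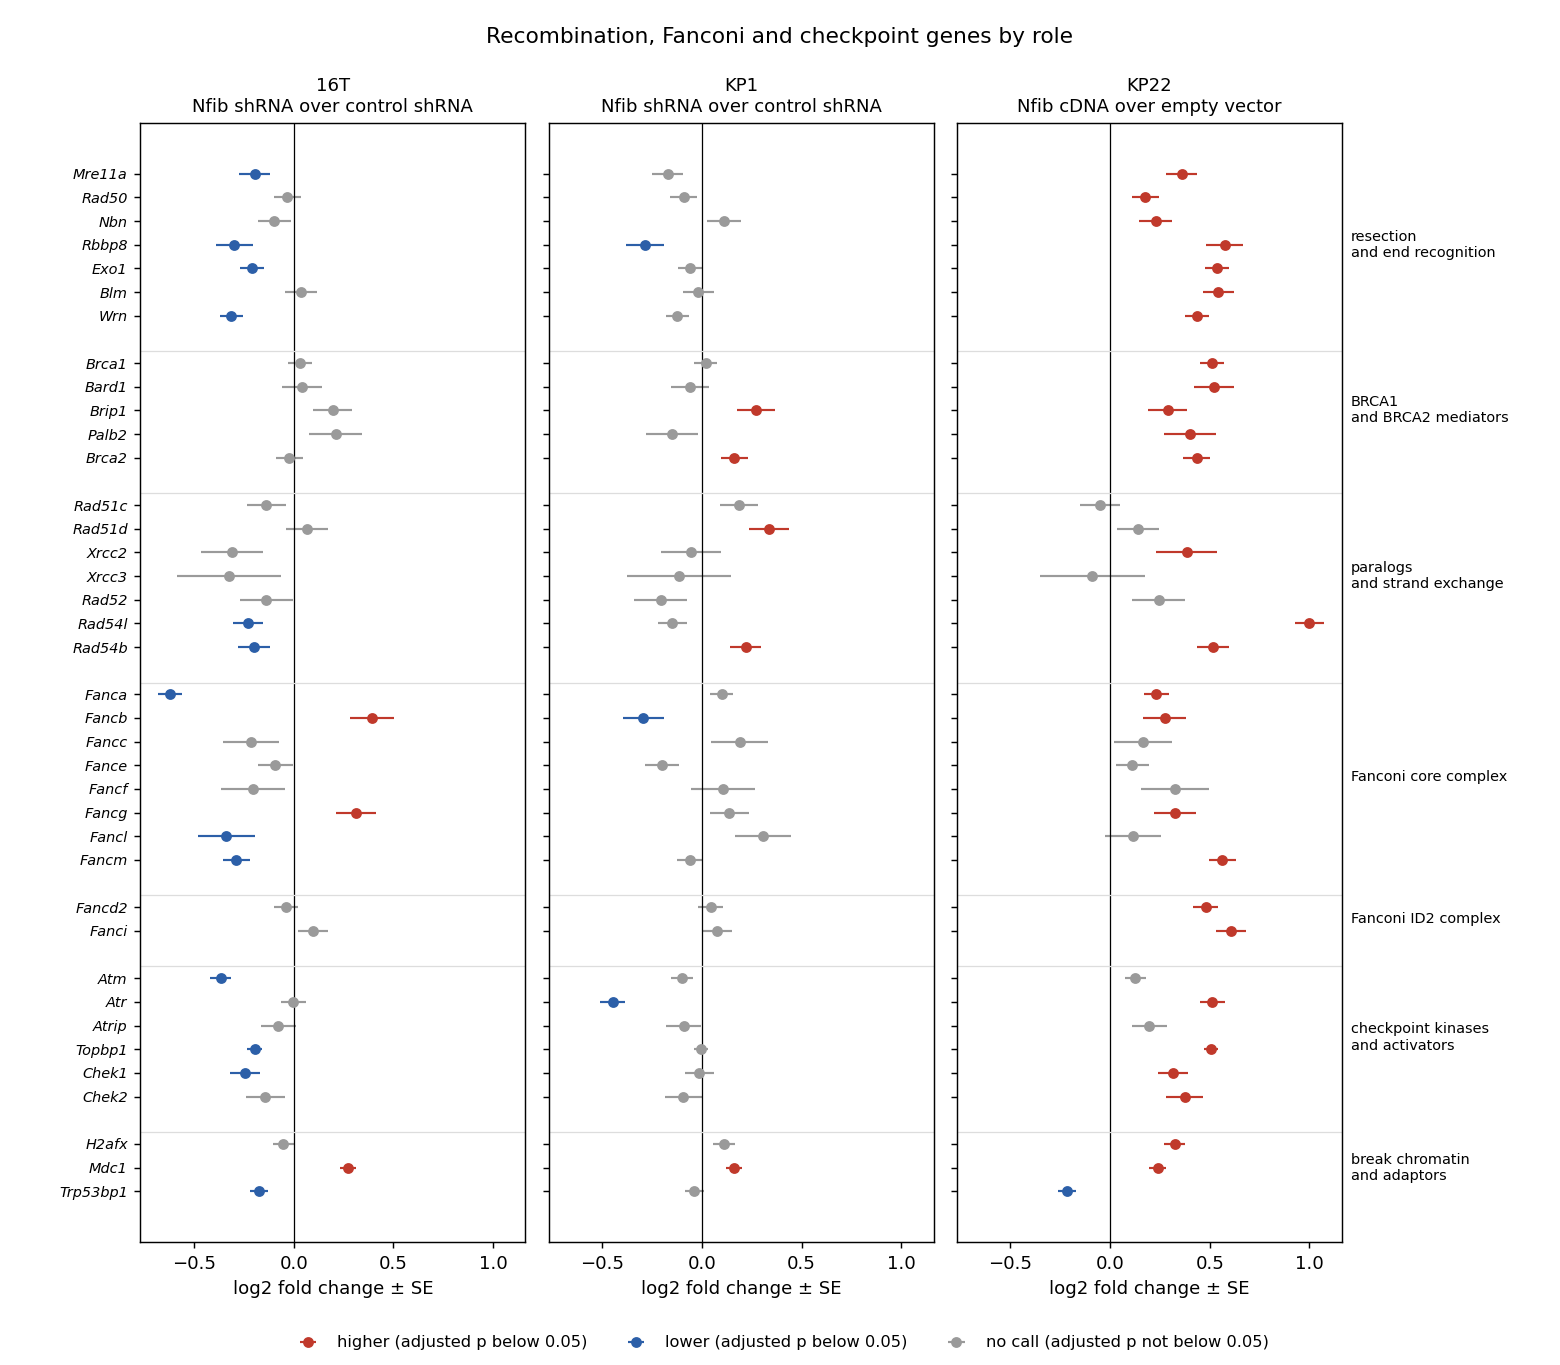
Log2 fold changes (x axis, with SE bars) of the 38 genes, grouped by role, with Nfib shRNA over control shRNA in 16T and KP1 and with Nfib cDNA over empty vector in KP22. Red and blue points had an adjusted p below 0.05 in the authors' deposited table. In KP22 the points lie to the right of 0 except Trp53bp1, Rad51c and Xrcc3, with Rad54l farthest at 1.0. In 16T 28 points lie to the left of 0 and 10 to the right, and in KP1 22 and 16.

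The end-processing genes all rose in KP22 by the authors' test, 7 of 7, though the calls of Nbn and Rad50 were lost under Student's t. The largest rises among them in the authors' deposited table were Rbbp8 (0.57 ± 0.093), which encodes the resection factor CtIP, Blm (0.54 ± 0.079), the helicase mutated in Bloom syndrome, and Exo1 (0.54 ± 0.060), the long-range resection nuclease. Wrn, the Werner syndrome helicase, rose by 0.44 ± 0.059 in the authors' deposited table. The MRN subunits rose less in the authors' deposited table, namely Mre11a (0.36 ± 0.078), Nbn (0.23 ± 0.084, adjusted p = 0.0225) and Rad50 (0.18 ± 0.068, adjusted p = 0.0286).

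BRCA1, BRCA2 and their partners also rose together in KP22 by the authors' test, 5 of 5, though the calls of Palb2 and Brip1 were lost under Student's t. In the authors' deposited table Bard1 (0.52 ± 0.1) and Brca1 (0.51 ± 0.059), which encode the partners of a heterodimeric ubiquitin ligase, rose by nearly the same amount. Brca2, a mediator of strand exchange and a tumor suppressor gene, had a rise of 0.43 ± 0.068 (adjusted p = 1.61e-09), per the authors' deposited table. Palb2 (0.40 ± 0.13), which joins BRCA1 to BRCA2, and Brip1 (0.29 ± 0.098), a BRCA1-bound helicase also known as FANCJ, followed in the authors' deposited table.

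Of 7 strand exchange genes, 3 rose in KP22 and 4 had no call, and differences between them were not tested. Rad54l, a DNA translocase of the strand exchange step, had the largest rise, 1.0 ± 0.074 on the log2 scale or 2.0-fold in the authors' deposited table, with an adjusted p of 5.14e-40. It was the single member called when the authors tested for a log2 change beyond 0.5 either way (adjusted p = 5.29e-10 in the authors' deposited table), a test that called 7.66% of all genes in KP22. Its relative Rad54b rose by 0.52 ± 0.079 in the authors' deposited table. However, 55.6% of the exon length counted for Rad54b overlaps exons of Fsbp and Gm11832 in GENCODE M21. Reads in that overlap cannot be assigned to 1 of these genes here. Of Rad51c, Rad51d, Xrcc2 and Xrcc3, paralogs that assist strand exchange, Xrcc2 rose (0.38 ± 0.15, adjusted p = 0.0361) in the authors' deposited table. The other 3 had no call in KP22, with values of 0.14 ± 0.11 for Rad51d, -0.05 ± 0.099 for Rad51c and -0.09 ± 0.26 for Xrcc3 in the authors' deposited table. The SE of Xrcc3 was large for a mean of 2154, since 0.921% of 5647 genes with means of 1000 to 5000 had one as large. Rad52, an annealing factor, had 0.24 ± 0.13 (adjusted p = 0.151) in the authors' deposited table.

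In the Fanconi pathway the FANCD2-FANCI pair rose in KP22, as did part of the core complex. Fanci (0.61 ± 0.075) had the largest rise of the members after Rad54l in the authors' deposited table, and Fancd2 rose by 0.48 ± 0.062. Among 8 core complex genes 4 rose in the authors' deposited table, namely Fancm (0.56 ± 0.067), the DNA translocase that anchors the complex, Fancg (0.33 ± 0.10), Fancb (0.27 ± 0.11, adjusted p = 0.0356) and Fanca (0.23 ± 0.062). The other 4 had values above 0 and no call in the authors' deposited table, from 0.11 ± 0.085 for Fance to 0.33 ± 0.17 for Fancf, and Fancl, the ubiquitin ligase of the complex, had 0.11 ± 0.14.

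Of the checkpoint kinases and activators, 4 of 6 rose in KP22. Atr (0.51 ± 0.062) and Topbp1 (0.51 ± 0.036), whose product activates the ATR kinase, rose in the authors' deposited table, as did the effector kinase genes Chek2 (0.37 ± 0.094) and Chek1 (0.32 ± 0.073). Atm had 0.13 ± 0.053 (adjusted p = 0.0507) and Atrip, the ATR partner, 0.20 ± 0.089 (adjusted p = 0.0703) in the authors' deposited table, both without a call. The difference between Atr and Atm was not tested. Of the chromatin factors, H2afx (0.32 ± 0.053) and Mdc1 (0.24 ± 0.041), the adaptor that binds the phosphorylated histone, rose in the authors' deposited table, with 10.4% of the H2afx exon length under exons of Gm44335. Trp53bp1, which encodes 53BP1, a factor that restrains resection and favors end joining, was the exception: its log2 fold change in the authors' deposited table was -0.22 ± 0.048, a fall with an adjusted p of 3.53e-05.

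Promoter windows from RefSeq (GRCm38.p6, 250 bases before to 50 after the transcript start) were found for 28 of the 38 genes. They are shown for the member with the largest rise in KP22 (Rad54l), for the 3 risen members with the largest rises among those that hold an E2F-type motif (Bard1, Topbp1, Brca2), and for the member that fell (Trp53bp1). Sequences run 5′ to 3′ on the gene's strand, and capitals mark E2F-type, CHR and NF-Y motifs found on either strand, which are E2F-type motifs in Bard1, Topbp1 and Brca2, the CHR motif TTTGAA in Bard1 as well, and the NF-Y motif CCAAT in Rad54l. The shorter NFI motif TTGGCA, which Rad54l and Bard1 also hold, is left in lower case.
Rad54l, chr4:116123641-116123940, minus strand: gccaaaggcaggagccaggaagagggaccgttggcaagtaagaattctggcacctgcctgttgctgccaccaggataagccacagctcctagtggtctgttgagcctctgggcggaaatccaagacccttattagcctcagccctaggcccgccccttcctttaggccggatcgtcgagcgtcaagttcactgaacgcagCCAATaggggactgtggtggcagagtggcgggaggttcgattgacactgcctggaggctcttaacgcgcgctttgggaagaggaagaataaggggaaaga
Bard1, chr1:71102923-71103222, minus strand: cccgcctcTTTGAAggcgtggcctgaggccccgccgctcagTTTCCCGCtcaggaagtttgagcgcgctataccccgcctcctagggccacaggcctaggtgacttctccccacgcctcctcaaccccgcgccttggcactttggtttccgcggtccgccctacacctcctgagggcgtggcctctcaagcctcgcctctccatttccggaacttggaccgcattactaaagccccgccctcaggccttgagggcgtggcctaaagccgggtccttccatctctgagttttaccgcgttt
Topbp1, chr9:103305077-103305376, plus strand: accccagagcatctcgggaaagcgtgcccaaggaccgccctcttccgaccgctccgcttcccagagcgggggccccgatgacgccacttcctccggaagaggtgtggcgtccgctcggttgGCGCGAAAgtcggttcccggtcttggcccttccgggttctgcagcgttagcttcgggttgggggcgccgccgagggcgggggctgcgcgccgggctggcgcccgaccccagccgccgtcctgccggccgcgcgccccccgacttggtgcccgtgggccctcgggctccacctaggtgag
Brca2, chr5:150522371-150522670, plus strand: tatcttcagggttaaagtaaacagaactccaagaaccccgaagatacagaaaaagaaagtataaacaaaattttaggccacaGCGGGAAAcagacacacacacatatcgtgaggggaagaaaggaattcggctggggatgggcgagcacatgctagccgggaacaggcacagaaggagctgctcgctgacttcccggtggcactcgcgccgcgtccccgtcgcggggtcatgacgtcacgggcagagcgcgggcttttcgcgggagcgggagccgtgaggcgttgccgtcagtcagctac
Trp53bp1, chr2:121271358-121271657, minus strand: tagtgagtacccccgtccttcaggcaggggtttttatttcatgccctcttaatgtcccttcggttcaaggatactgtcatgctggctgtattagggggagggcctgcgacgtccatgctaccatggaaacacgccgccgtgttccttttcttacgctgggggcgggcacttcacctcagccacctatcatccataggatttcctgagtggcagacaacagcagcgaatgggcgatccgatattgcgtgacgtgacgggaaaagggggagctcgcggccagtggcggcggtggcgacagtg

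The E2F-type motif, searched as TTTCCCGC, TTTGGCGC, TTTCGCGC or TTTGCCGC on both strands, was in 7 of 28 member windows (25%), against 4.06% of 12600 genes with a window that were tested in KP22 and 2.6% of all 27025 genes with a window. Members with it were Bard1, Brca2, Rad51c, Fancg, Topbp1, Chek2, and Mdc1, of which Rad51c did not rise in KP22. The motif was in 6 of 18 windows of members that rose and in 1 of 10 windows of the others. CCAAT on either strand was in 17 of 28 member windows (60.7%), against 42.3% of the tested genes. TTTGAA or TTCGAA, the CHR motif of late cell cycle genes, was in 2 of 28, those of Bard1 and Atr, against 16.5%. The full palindromic NFI motif was in no member window, against 0.0397% of the tested genes, and the shorter NFI motif TTGGCA was in 3 (Bard1, Rad54l and Fancg), or 10.7%, against 14.3%. CCAAT read on the other strand can overlap the first letters of TTGGCA. A match is a run of letters and not a measured binding site, and no match says only that these letters are not in the window.

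In 16T with the Nfib shRNA, the falls were spread over all roles except the BRCA1 and BRCA2 mediators and the FANCD2-FANCI pair, which had no call. Fanca, a core complex gene often mutated in human Fanconi anemia, fell the most, with -0.62 ± 0.061 (adjusted p = 1.36e-22) per the authors' deposited table, which left 65.0% of the control level. Per the authors' deposited table, Atm (-0.37 ± 0.054, adjusted p = 9.11e-11) and Fancl (-0.34 ± 0.14, adjusted p = 0.0427) came next. Among end-processing genes Wrn (-0.31 ± 0.057), Rbbp8 (-0.30 ± 0.094), Exo1 (-0.21 ± 0.062) and Mre11a (-0.20 ± 0.078) fell in the authors' deposited table. Fancm (-0.29 ± 0.068), Chek1 (-0.24 ± 0.075), Rad54l (-0.23 ± 0.075), Rad54b (-0.20 ± 0.08), Topbp1 (-0.20 ± 0.036), and Trp53bp1 (-0.18 ± 0.047) fell as well, per the authors' deposited table. Fancb (0.39 ± 0.11), Fancg (0.31 ± 0.10) and Mdc1 (0.27 ± 0.04) rose in the authors' deposited table. Under Student's t at 6 degrees of freedom the calls of Mre11a, Rbbp8, Rad54l, Rad54b, Fancg, Fancl and Chek1 in 16T were lost (adjusted p of 0.0532 to 0.123). By the authors' test the core complex held members moving both ways, with 3 falls and 2 rises among 8. Brca1 and Brca2, which rose in KP22, had values in 16T of 0.03 ± 0.059 and -0.02 ± 0.068 in the authors' deposited table. The largest values without a call were those of Xrcc3 (-0.33 ± 0.26) and Xrcc2 (-0.31 ± 0.16) in the authors' deposited table.

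In KP1 with the Nfib shRNA, Atr was the gene with the largest change, with -0.45 ± 0.063 (adjusted p = 2.12e-11) per the authors' deposited table, a fall to 73.3% of the control level. Fancb (-0.29 ± 0.10, adjusted p = 0.0167) and Rbbp8 (-0.29 ± 0.094, adjusted p = 0.00893) also fell in the authors' deposited table. Rises in the authors' deposited table were Rad51d (0.34 ± 0.10), Brip1 (0.27 ± 0.095), Rad54b (0.22 ± 0.078), Brca2 (0.16 ± 0.068, adjusted p = 0.0496) and Mdc1 (0.16 ± 0.041). With Student's t at 6 degrees of freedom the calls of Rbbp8, Brip1, Brca2, Rad51d, Rad54b and Fancb were lost (adjusted p of 0.0619 to 0.143), which left Atr and Mdc1, and at an adjusted p below 0.01 those of Brip1, Brca2, Rad54b and Fancb were lost. Without a call in KP1 but close to it in the authors' deposited table were Fance (-0.20 ± 0.085, adjusted p = 0.0521), Mre11a (-0.17 ± 0.078, adjusted p = 0.0746), Fancl (0.31 ± 0.14, adjusted p = 0.0824) and Wrn (-0.12 ± 0.058, adjusted p = 0.0906). Rad54l, the largest rise in KP22, had -0.15 ± 0.074 (adjusted p = 0.111) in KP1, and Fanca, the largest fall in 16T, had 0.10 ± 0.060 (adjusted p = 0.219), per the authors' deposited table. All 6 checkpoint kinases and activators had values below 0 in KP1 and in 16T, with 1 fall in KP1 and 3 in 16T, but Atr in 16T and Topbp1 and Chek1 in KP1 were above 0 once values were recentred on the median gene. In neither knockdown line was a member called against a change of 0.5 by the authors' test, which called 5.25% of all genes in 16T and 4.58% in KP1. At an unadjusted p below 0.05 that test counted 1 member in 16T, Fanca.

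The difference of the log2 fold changes, 16T minus KP1, was called for 7 of 38 genes, or 18.4%, against 29.4% of all genes tested (normal reference, Benjamini-Hochberg over 15008 genes). The largest differences were those of Fanca (-0.72 ± 0.086), Fancb (0.69 ± 0.15) and Fancl (-0.65 ± 0.20), all of the core complex. Atr differed by 0.44 ± 0.089, Rad54b by -0.42 ± 0.11, Atm by -0.27 ± 0.076 and Topbp1 by -0.19 ± 0.05. With Student's t at 6 degrees of freedom the calls of Rad54b, Fancl, Atm and Topbp1 were lost (adjusted p of 0.0599 to 0.092), and those of Fanca, Fancb and Atr were kept. Rad54b and Fancb were called in both lines with opposite signs, while Rbbp8 and Mdc1 were called in both with the same sign. Of all genes called in both knockdown lines, 19.7% had opposite signs.

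**Figure D2:**
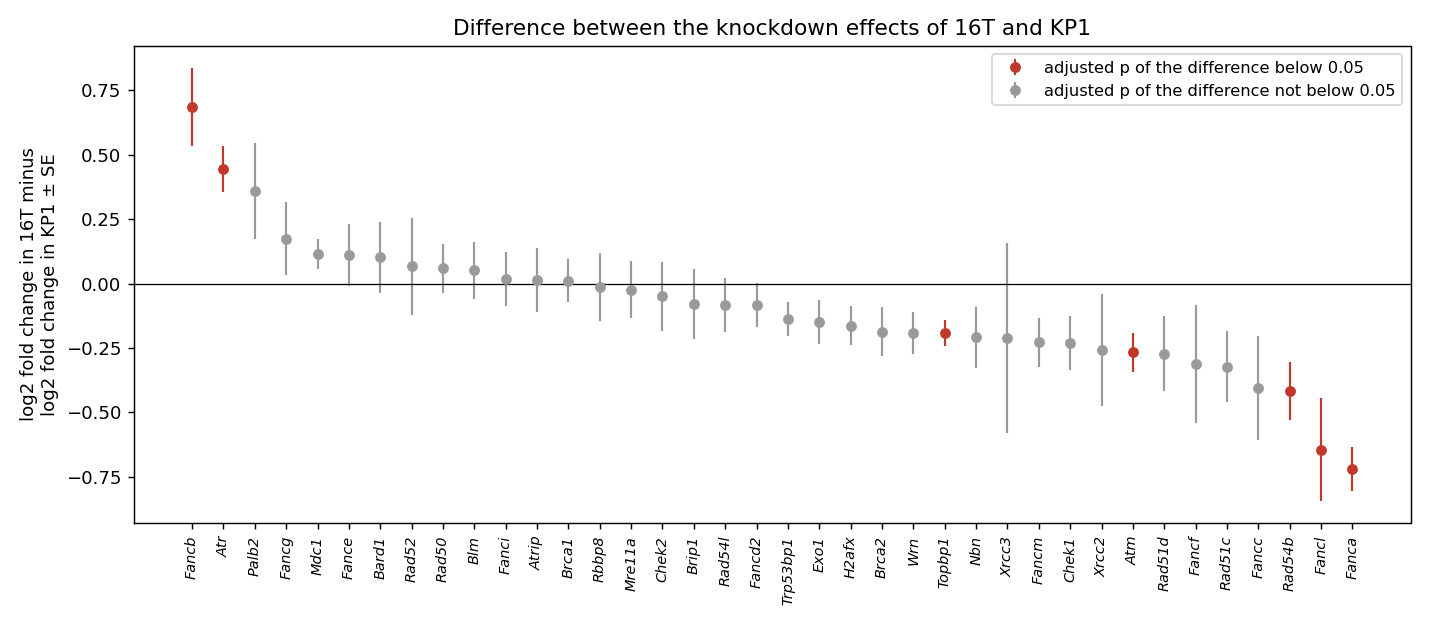
Log2 fold change in 16T minus log2 fold change in KP1 (y axis, with SE bars) for each of the 38 genes, ordered from highest to lowest. The 7 red points had an adjusted p of the difference below 0.05, from Fancb at 0.69 down to Fanca at -0.72.

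A set of 4 genes was called in all 3 comparisons, against 15.1% of all genes tested in all 3, and they did not share a pattern. Rbbp8 rose with Nfib cDNA in KP22 (0.57 ± 0.093) and fell with the shRNA in both other lines (-0.30 ± 0.094 in 16T, -0.29 ± 0.094 in KP1), per the authors' deposited table. Mdc1 rose in all 3 comparisons (0.24 ± 0.041 in KP22, 0.27 ± 0.04 in 16T and 0.16 ± 0.041 in KP1 in the authors' deposited table). Fancb and Rad54b changed sign between the knockdown lines, as given above, and the exon overlap of Rad54b limits its calls here too. Between KP22 and 16T, 14 members were called in both, and 10 of them had opposite signs, or 71.4%, against 76.2% of all genes called in both. These 10 were Mre11a, Rbbp8, Exo1, Wrn, Rad54l, Rad54b, Fanca, Fancm, Topbp1, and Chek1, and the 4 with the same sign were Fancb, Fancg, Mdc1 and Trp53bp1. Between KP22 and KP1, 7 members were called in both and 3 had opposite signs (Rbbp8, Fancb and Atr), or 42.9%, against 70.3% of all genes called in both. Over the 3 comparisons 13 members were called in 2, against 25.5% of all genes, 14 in 1, against 30.8%, and 7 in none, against 28.5%. The 7 were Rad51c, Xrcc3, Rad52, Fancc, Fance, Fancf and Atrip.

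For many members the changes with raised and lowered Nfib were not equal and opposite. The sum of the KP22 log2 fold change and the mean knockdown log2 fold change is 0 for equal and opposite changes. Its test called 36.7% of all genes tested and 44.3% of genes within the members' range of mean counts. Among the members the sum was called for 22 of 38 genes (normal reference, Benjamini-Hochberg). It was above 0 for 21 of them, with the largest sums for Rad54l (0.81 ± 0.091), Fanci (0.69 ± 0.092), Blm (0.55 ± 0.097), Fancg (0.55 ± 0.13) and Brca1 (0.54 ± 0.072). A sum above 0 can come from a KP22 rise larger than the knockdown fall, from a KP22 rise without a knockdown change, or from changes that both point up. The sum does not tell these apart. Of the 21 genes, 8 had a knockdown mean below 0 (Rbbp8, Exo1, Wrn, Bard1, Rad54l, Fancm, Atr and Topbp1) and 13 had one above 0. Several of these means lay within their SE of 0, so their sign says little. Examples in the authors' deposited table are Bard1 (-0.009 ± 0.069), Blm (0.008 ± 0.056) and Fancd2 (0.001 ± 0.043). In 4 of those 13, Brip1, Rad51d, Fancg and Mdc1, the knockdown mean itself rose in the authors' deposited table (0.23 for Brip1, 0.20 for Rad51d, 0.23 for Fancg and 0.22 for Mdc1), and Rad51d had no call in KP22. Below 0 was Trp53bp1 (-0.32 ± 0.058), which fell both in KP22 with the cDNA and in 16T with the shRNA. All 5 BRCA1 and BRCA2 mediators and both genes of the FANCD2-FANCI pair had sums above 0 that passed the test. Under Student's t at 6 degrees of freedom 5 calls of the sum were lost (adjusted p of 0.0809 to 0.141). They were those of Rbbp8, Wrn, Palb2, Rad51d and Fancb. At an adjusted p below 0.01 with the normal reference 4 were lost, those of Rbbp8, Palb2, Rad51d and Fancb. Fanca, at -0.03 ± 0.076 (adjusted p = 0.811), was among the 16 genes without a call, as were Chek1 (0.19 ± 0.09, adjusted p = 0.0931) and Mre11a (0.18 ± 0.095, adjusted p = 0.145). Nfib itself changed by different amounts, and the lines and vectors differ, which cannot be told apart from the size of the response.

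**Figure D3:**
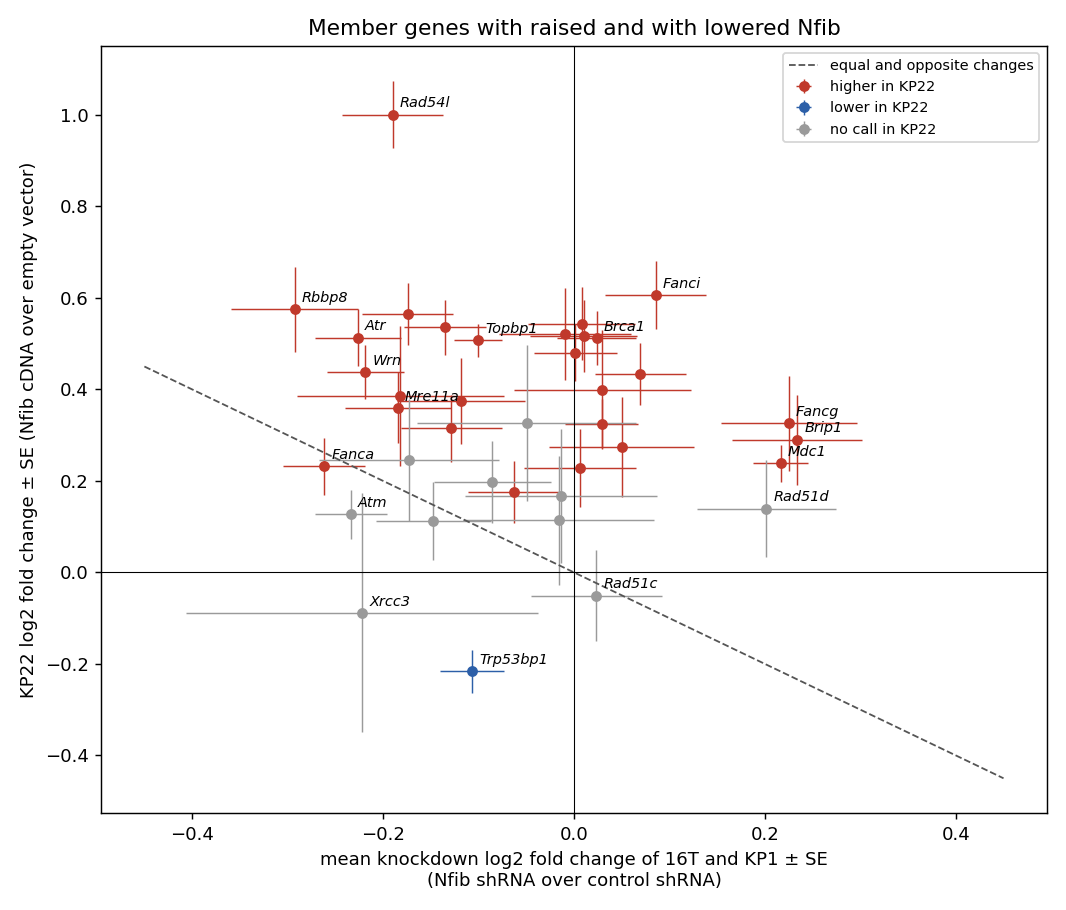
KP22 log2 fold change with Nfib cDNA over empty vector (y axis) against the mean log2 fold change of 16T and KP1 with Nfib shRNA over control shRNA (x axis), with SE bars. Each point is 1 of the 38 genes, and the dashed line marks equal and opposite changes. Most points lie above the line, with Rad54l highest at 1.0 and Trp53bp1 below it at -0.22.

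Other genes of recombination and crosslink repair also rose in KP22. Of 32 measured, 17 rose and 1 fell there, against 19.5% and 18.8% of all genes, with a median of 0.22. In 16T 10 fell (31.25%, near the 30.1% of genes within the members' range of mean counts) and 2 rose (6.25%, against 23.5%). In KP1 3 fell (9.4%, against 22.5%) and 7 rose (21.9%, near 20.9%). In the authors' deposited table the largest rises in KP22 were Eme1 (0.69 ± 0.12), a subunit of the MUS81 nuclease, Rad51ap1 (0.60 ± 0.084), an accessory factor of strand exchange, and Rad51b (0.58 ± 0.23), and Eme1 fell in 16T (-0.37 ± 0.12). The largest fall in 16T was Rmi2 (-0.86 ± 0.14), a partner of BLM, and the largest rise in KP1 was Ube2t (0.54 ± 0.091), the ubiquitin-conjugating enzyme of the Fanconi pathway, per the authors' deposited table. Other checkpoint and break signalling genes were more mixed in KP22, with 11 rises and 8 falls among 32. These were 34.4% and 25%, near the 28% and 24.9% of genes within the members' range of mean counts. They included Wee1 (0.80 ± 0.065), the kinase that restrains CDK1, which rose in the authors' deposited table. Mad2l2 (-0.67 ± 0.062), a shieldin and translesion synthesis factor, fell there. Cdkn1a, which encodes the CDK inhibitor p21, rose in both knockdown lines in the authors' deposited table, by 1.31 ± 0.092 in 16T and 1.19 ± 0.09 in KP1. Of 19 end joining genes, 8 rose and 1 fell in KP22 (42.1% and 5.26%). Of 34 mismatch and excision repair genes, 11 rose and 4 fell (32.4% and 11.8%). Within the members' range of mean counts 28% rose and 24.9% fell, so the mismatch and excision repair rises were near that share.

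Cell cycle genes also rose in KP22. In 16T the S phase calls leaned down, as did those of the repair genes, with more genes called. In KP1 the S phase calls leaned up, with a median log2 fold change of 0.08. The repair genes there had few calls and a median of -0.03, with 22 of 38 values below 0. The G2/M calls leaned up in both knockdown lines, unlike those of the repair genes in 16T. In KP22, 32 of 45 S phase genes rose and 1 fell, with a median of 0.30, and 35 of 40 G2/M genes rose and 1 fell, with a median of 0.32, beside 27 of 38 and 0.33 for the repair genes. In the authors' deposited table the S phase list included E2f2 (1.2 ± 0.046) and Mcm10 (0.61 ± 0.078), and the G2/M list Mybl2 (0.70 ± 0.061), Foxm1 (0.53 ± 0.068) and Mki67 (0.48 ± 0.045), all of which rose. In 16T, 28 S phase genes fell and 4 rose, whereas 6 G2/M genes fell and 12 rose, beside 13 falls and 3 rises of repair genes. In KP1, 7 S phase genes fell and 16 rose, and 1 G2/M gene fell and 17 rose, beside 3 falls and 5 rises of repair genes. Their part in the change of the repair genes was not tested. Neuroendocrine markers moved as well, with 9 of 14 falls and 3 rises in KP22, 4 falls and 7 rises in 16T, and 4 falls and 8 rises in KP1, and their part was not tested either. Of the 7 leukocyte markers tested in KP22, 1 rose, and of the 9 fibroblast and endothelial markers, 1 fell.

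**Figure D4:**
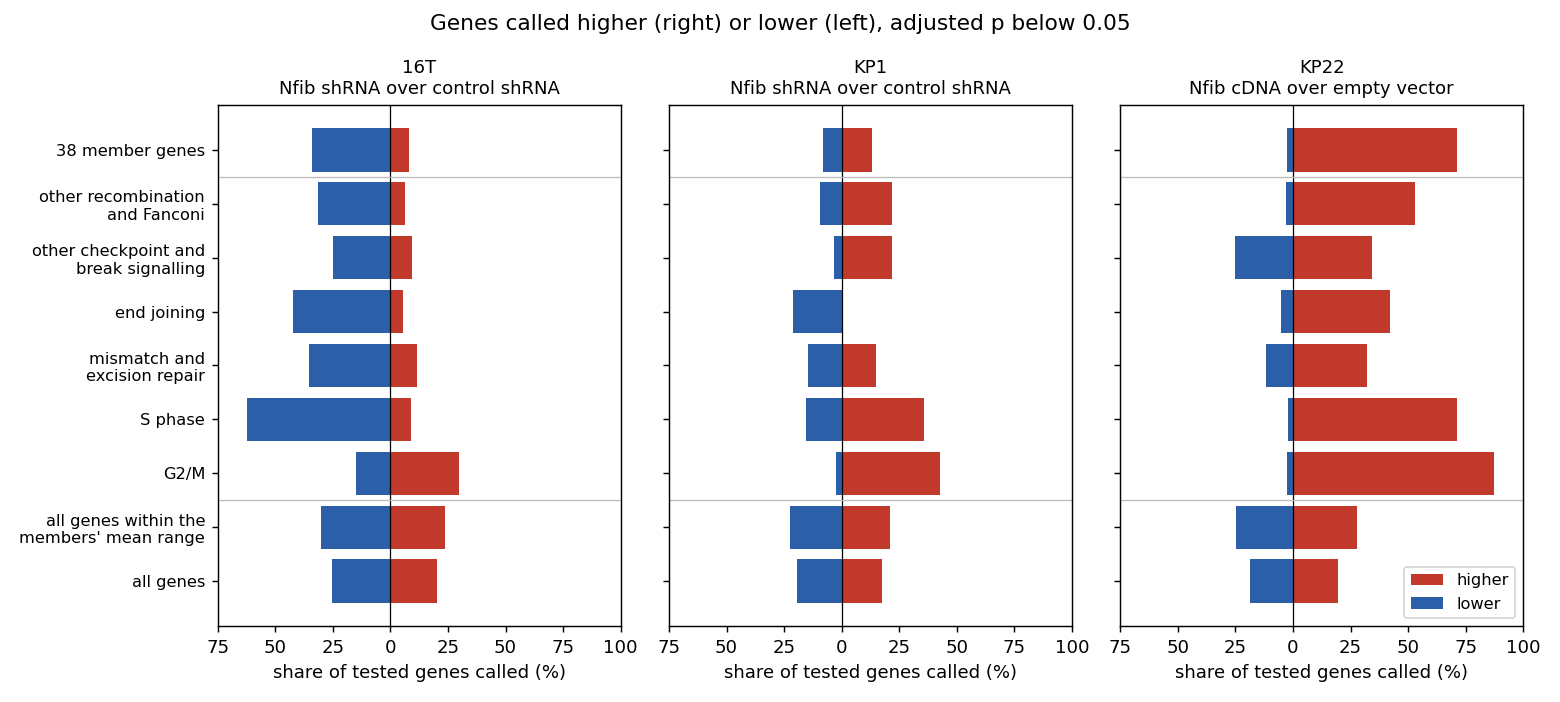
Share of tested genes (x axis, percent) called higher (right of 0) or lower (left of 0) in each comparison, for the 38 genes, for other DNA repair and cell cycle lists, and for 2 backgrounds at the bottom. In KP22 the 38 genes and the S phase list each had about 71% of their genes called higher and the G2/M list 87.5%, against 19.5% of all genes.

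The counting left part of some members out. Exons merged with another exon or gene stand under joined names, and 20 such features hold exons of 17 members, 12 of the member alone and 8 shared with another gene. In KP22, 19 of the 20 had the sign of the member itself. Of these, 4 rose in the authors' deposited table, namely the joined exons of Rad54l alone (0.95 ± 0.18) and those it shares with Lrrc41 (0.53 ± 0.11), those of Palb2 alone (0.64 ± 0.22), and those Fanci shares with Polg (0.29 ± 0.10). The joined exons that Fanca shares with Zfp276 had -0.21 ± 0.092 in 16T (adjusted p = 0.0515) in the authors' deposited table, and those of Fancb alone rose there (0.63 ± 0.17). Those that Trp53bp1 shares with Tubgcp4 had no call in KP22 (-0.07 ± 0.071, adjusted p = 0.509) or 16T (0.07 ± 0.071, adjusted p = 0.484), per the authors' deposited table. In KP1 they rose (0.19 ± 0.070, adjusted p = 0.0278). By chromosome, the 38 genes lie on 14 chromosomes. Of the 7 on chromosome 9 (Mre11a, Atm, Atr, Atrip, Topbp1, Chek1 and H2afx) 5 rose in KP22, a share like the 71.1% of all 38 genes. Of all tested genes on that chromosome 17% rose. All 4 members on chromosome 4 (Nbn, Rad54l, Rad54b and Fancg) rose in KP22, where 20% of all tested genes on it rose. Falls were not counted by chromosome, so the surroundings of Trp53bp1 on chromosome 2 were not examined.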

How the data were processed

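RNA of 12 samples was extracted with a Qiagen kit and made into libraries with an Illumina TruSeq kit, per the labels' protocols. Per the submitters' processing notes, the tools were DESeq, DESeq2, TopHat and bedtools on build mm10. Tool versions were not given in the sources used here. In the table the authors deposited are 1 mean normalized count per feature (a signal over all libraries), log2 fold changes with SEs, a Wald score and p-values, raw and adjusted, for 16T, KP1, their mean and KP22, and scores and p-values of a second test, for changes beyond 0.5, per the file headers. A deposited list of merged exon intervals gave positions and lengths.

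The direction of the comparisons was taken from Nfib. Features with 1 gene name were used. A fit over samples was planned for counts or values per sample, and the deposited results were used instead. Differences between comparisons, which share no samples, were computed from the log2 fold changes and SEs for the 15008 genes whose mean reached 10. They were tested against the normal distribution, with p-values adjusted by Benjamini-Hochberg. The calculation was also run on simulated tables with normal noise of the same SEs. That run cannot show whether the normal distribution holds with 2 samples per group. Values are given for members called in at least 2 comparisons, called with a change of at least 0.5, or among the 5 largest changes of a comparison, and for others where a role group is described. Genes of other lists are among the 3 largest called changes of their list. Members and lists were chosen with earlier results of these data known. Per-sample depth is unknown, so the precision is that of the SEs, 0.036 to 0.26 for the members in KP22. Python 3.11.15, scipy 1.17.1 and pandas 2.3.3 were used. Leaving out replicates could not be done on a table of results.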

Additional observations from a re-analysis of the deposited data

Results flagged for a closer look

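For 7 genes the knockdown effect differed between the lines by a test of the difference itself (16T minus KP1 on the log2 scale, adjusted p below 0.05). They were Fancb (0.69 ± 0.15), Atr (0.44 ± 0.089), Topbp1 (-0.19 ± 0.05), Atm (-0.27 ± 0.076), Rad54b (-0.42 ± 0.11), Fancl (-0.65 ± 0.20) and Fanca (-0.72 ± 0.086). With Student's t at 6 degrees of freedom, Fanca, Fancb and Atr passed and the other 4 did not. With 7 of 38, the share called was below the 29.4% of all genes.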

How the results depend on the processing

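No paired analysis was possible because the deposited table holds results and no values per sample, and leaving out each replicate was not run for the same reason. Under an adjusted p below 0.01, members called numbered 4 in KP1. Under the authors' test against a change of 0.5 they numbered 1 in KP22, 0 in 16T and 0 in KP1 (1, 1 and 0 at an unadjusted p below 0.05). With Student's t at 6 degrees of freedom they numbered 9 in 16T and 2 in KP1, and members differing between 16T and KP1 numbered 3. All other counts stayed within 1.5 times the reported count under the alternatives run, and members called in KP22 stayed between 21 and 30 apart from the test against 0.5. The median gene lay at -0.05 in 16T, -0.02 in KP1 and 0.05 in KP22, and recentring on it turned the sign of 9 small values without a call. These became 0.0177 for Rad50, 0.0275 for Brca2, 0.0110 for Fancd2 and 0.0472 for Atr in 16T, 0.00244 for Blm, 0.0158 for Topbp1 and 0.00715 for Chek1 in KP1, and 0.00783 for Mre11a and 0.0190 for Rbbp8 in the difference between the lines. Of the values of single genes, 942 kept their call and direction, 106 lost the call and 7 gained it. The cause of these moves was not tested.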
